A study of Mus musculus with 20 samples.

Results

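The genes Ccr7, S1pr1, S1pr4, Cd69, Cd44, Dapl1 and Igfbp4 were followed through RNA-seq of mouse CD4+ T cells with and without the histone methyltransferase DOT1L. They were taken by gene name from the deposited table of protein-coding genes, where they are 7 of 22048 genes, and all 7 were among the 13072 genes that passed the filter on low counts. The set was put together for movement into and out of lymph nodes. It joins 5 receptors and surface proteins of trafficking to 2 genes, Dapl1 and Igfbp4, whose RNA is known as a mark of the naive state.

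A naive T cell enters a lymph node from the blood and follows the chemokines CCL19 and CCL21, which it senses with CCR7. It leaves by following sphingosine 1-phosphate, a lipid that is abundant in lymph and blood and scarce in the node, through S1PR1. CD69, which appears on activated cells, binds S1PR1 and takes it off the surface, so that the cell stays. CD44, a receptor for the matrix polymer hyaluronan, is the usual surface mark that separates activated and memory cells from naive ones. The transcription factor FOXO1 is known to drive Klf2, Ccr7 and Il7r, and KLF2 in turn S1pr1. DOT1L methylates lysine 79 of histone H3 in the bodies of transcribed genes.

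The 20 libraries form 10 groups of 2. All mice carried a Cre recombinase driven by CD4, which is active in developing T cells that express CD4. The WT mice carried this Cre alone and the KO mice carried it together with floxed DOT1L alleles. The ages of the animals are not given in the sources used here. Cells were pre-enriched from spleen and peripheral lymph nodes. The groups named naive are this starting population, and no sort for naive cells is stated. Cultures were stimulated by anti-CD3 and anti-CD28, each bound to the plate at 1 µg/ml, and viable CD4+ cells were sorted after 4 days. For Th1 the medium held IL-2 and IL-12 at 10 ng/ml each and anti-IL-4 at 10 µg/ml. For Th2 it held IL-2 and IL-4 at 10 ng/ml each and anti-IFN-γ at 10 µg/ml. WT and KO cells were cultured both ways, and further WT cultures of both kinds received a compound at 1 µM, which was either the DOT1L inhibitor SGC0946 or the control SGC0649. The labels do not say whether the 2 libraries of a group came from separate animals, so p-values measure the spread between these libraries, which may be technical.

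Protein-coding counts ranged from 9704500 to 13025588 per library, and levels are given in CPM, the count of a gene scaled to the size of its library. Differences are log2 fold changes ± SE from edgeR's quasi-likelihood test, with p adjusted by Benjamini-Hochberg over the 13072 genes, and a gene was called at an adjusted p under 0.05. Dot1l RNA itself differed by -0.10 ± 0.11 between KO and WT naive cells (adjusted p = 0.544). It was lower in KO Th1 (-0.39 ± 0.11, adjusted p = 0.00841) and KO Th2 cultures (-0.60 ± 0.11, adjusted p = 0.000269). These counts include exons outside any deleted part and are a weak check of the genotype. In Th1 the adjusted p was 0.0605 when WT Th1 replicate 2 was left out and 0.0893 when KO Th1 replicate 1 was, so this call ended in both cases. Cd3e, which defines T cells, was present in every group, with group means of 171 to 340.1 CPM. Ccl21a, a stromal gene of the lymph node, had 0 counts in every group. Cd4 RNA was lower in KO than in WT in naive cells, Th1 and Th2 (-1.29, -2.32 and -1.76 on the log2 scale, all called).

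Loss of DOT1L was accompanied by lower RNA of the entry receptor Ccr7 and of Dapl1 and Igfbp4 in naive cells, Th1 and Th2 cultures. The egress receptors and Cd69 and Cd44 differed by culture. In naive cells 5 of the 7 genes were called, 4 lower and 1 higher in KO, where 28.4% of all genes tested were called, 12.4% lower and 16% higher. In Th1 cultures 5 were called and all of these were lower, against 50.6% of all genes called and 25.8% called lower. In Th2 cultures all 7 were called, 5 lower and 2 higher, against 53.4% of all genes, 26.9% lower and 26.5% higher. The median log2 difference of the 7 genes was -0.87 in naive cells, -1.22 in Th1 and -2.35 in Th2, where the medians of all genes tested were 0.01, 0.01 and -0.01. The KO and WT libraries did not overlap for 6, 5 and 7 of the genes, against 67.3%, 79.5% and 75.6% of all genes. RNA was measured in bulk, so fewer cells of a type and less RNA per cell cannot be told apart.

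**Figure D1:**
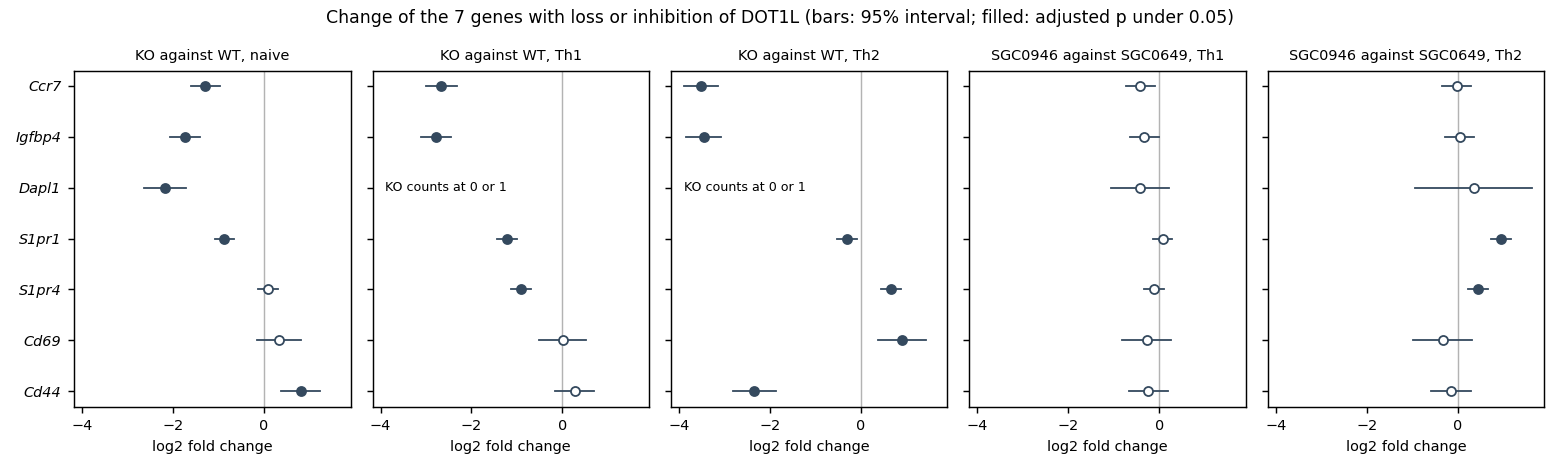
Log2 fold change of each of the 7 genes (horizontal axis, bars are 95% intervals) in the comparisons of KO with WT and of SGC0946 with SGC0649. Filled points passed at an adjusted p under 0.05, and no point is drawn for Dapl1 in KO Th1 and Th2, where 1 and 0 counts remained. Ccr7 and Igfbp4 lie left of 0 in all 3 KO panels, and the filled points of the SGC0946 panels are S1pr1 and S1pr4 in Th2.

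Markers of other cells moved in the same comparisons. Among naive libraries the summed T cell markers (8 genes, 1 higher and 4 lower in KO) were 3004 to 3355 CPM in KO and 4226 to 4238 CPM in WT. The myeloid and dendritic markers (10 genes, 6 higher) were 436.5 to 904 CPM in KO and 268 to 362 CPM in WT, and the erythroid markers (7 genes, 5 higher) were 323 to 1340 CPM in KO and 200.1 to 314 CPM in WT, both highest in KO naive replicate 1. B cell markers (2 of 7 higher) were 50.8 to 79.3 CPM in KO and 15.2 to 20.1 CPM in WT naive libraries, NK markers (3 of 5 higher) 121 to 152 against 65.8 to 93.2 CPM, and mast cell and basophil markers (4 of 8 higher) 74.1 to 157 against 28.1 to 53.2 CPM. In naive cells, then, the T cell sum was lower in KO and the other sums given so far were higher, with no overlap of libraries. Within the T cell sum, Cd4 itself had means of 403 CPM in KO and 985.5 CPM in WT. Means in KO and WT were also lower in KO for Cd5 (244 and 513 CPM), Cd3d (263 and 376 CPM) and Cd28 (517 and 727 CPM). Cd3e (267 and 303 CPM) and Cd2 (315 and 360 CPM) were nearer each other. Cd3g was close (432 and 423 CPM) and Thy1 was at 740 and 545 CPM. The T cell sum thus joins genes that differed in opposite directions. The Treg sum (2 of 4 lower) was 592 to 620 CPM in KO and 728 to 768 CPM in WT. The stromal and endothelial sum, nearly all from Pecam1, was 208 to 221 against 264 to 269 CPM, and the sums of the 2 Cd8 genes overlapped. In Th1 the T cell markers (1 of 8 higher and 6 lower) were 3770 to 3907 CPM in KO and 5427 to 5563 CPM in WT. Cd5 had means of 34.9 CPM in KO Th1 and 472 CPM in WT Th1, and Thy1 of 1714 and 982 CPM. The NK markers there (4 of 5 higher and 1 lower) were 1224 to 2155 against 161 to 182 CPM. Most of this sum was the granzyme gene Gzma, with means of 1653 CPM in KO Th1 and 136.4 CPM in WT Th1. Eomes had a lower mean in KO Th1 (9.86 and 22.25 CPM). Means were higher in KO Th1 for Klre1 (19.56 and 10.85 CPM), Klrb1c (4.89 and 1.09 CPM) and Ncr1 (2.27 and 0.795 CPM). The myeloid markers in Th1 (4 of 10 higher) were 57.5 to 62.2 CPM in KO against 19.9 to 22.9 CPM in WT. Mast cell and basophil markers were higher for 8 of 8 genes in KO Th1, at 878 to 2064 CPM against 133 to 174 CPM in WT. In KO Th2 the 5 NK markers summed to 20280 to 22320 CPM against 511 to 546 CPM, nearly all from the granzyme gene Gzma, and the 2 Cd8 genes to 129.6 to 267 CPM against 13.1 to 16.2 CPM. The myeloid markers (3 of 10 higher and 1 lower) were 84 to 127.7 CPM in KO Th2 and 12.2 to 48.1 CPM in WT Th2. Most of the KO sum was Itgax (means of 70.3 CPM in KO and 1.54 CPM in WT) and Itgam (20.6 and 1.13 CPM). Lyz2 (0.378 and 0.447 CPM) and Csf1r (1.14 and 0.143 CPM) were low in both. The means of Adgre1, S100a8 and S100a9 were lower in KO Th2, and those of Flt3 and Cd14 were higher. The T cell markers (4 higher and 4 lower) were 4172 to 4798 against 3118 to 3355 CPM. Cd3e, Cd3d, Cd3g and Thy1 had higher means in KO Th2, and Cd4, Cd5, Cd28 and Cd2 lower ones. Of the 5 NK markers 2 were called higher in KO Th2 and none lower. Group means in KO and WT Th2 were 43.9 and 9.75 CPM for Eomes and 0.337 and 0.824 CPM for Ncr1. They were 4.76 and 5.35 CPM for Klrb1c and 0.946 and 1.92 CPM for Klre1. The part of these cells in the results on the 7 genes was not tested.

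Ccr7 (ENSMUSG00000037944) lies on chromosome 11 of GRCm38 from 99144196 to 99155077 on the minus strand and encodes the receptor that leads T cells into the T cell zone. Per length, it was the most abundant of the 7 in WT naive cells, at 496.5 RPKM (CPM per kilobase of exon). Its level was 908 and 1056 CPM in the WT naive libraries and 332 and 472 CPM in the KO naive libraries. WT Th1 cultures had 946.5 and 967 CPM, and KO Th1 cultures 144 and 157 CPM. WT Th2 cultures had 215 and 275 CPM, and KO Th2 cultures 18.2 and 24.6 CPM. In each of these pairs both KO libraries lay below both WT libraries. The drop was -1.29 ± 0.15 in naive cells (adjusted p = 1.97e-05), -2.67 ± 0.16 in Th1 (adjusted p = 3.33e-09) and -3.52 ± 0.18 in Th2 (adjusted p = 2.22e-10). WT naive cells, WT Th1 cultures and Th1 cultures with SGC0649 headed the order of levels, and each of them overlapped the next. Below them came Th1 with SGC0946, KO naive, WT Th2, the Th2 cultures with either compound (which overlapped), KO Th1 and KO Th2, with a 45.9-fold range from the highest to the lowest group mean.

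**Figure D2:**
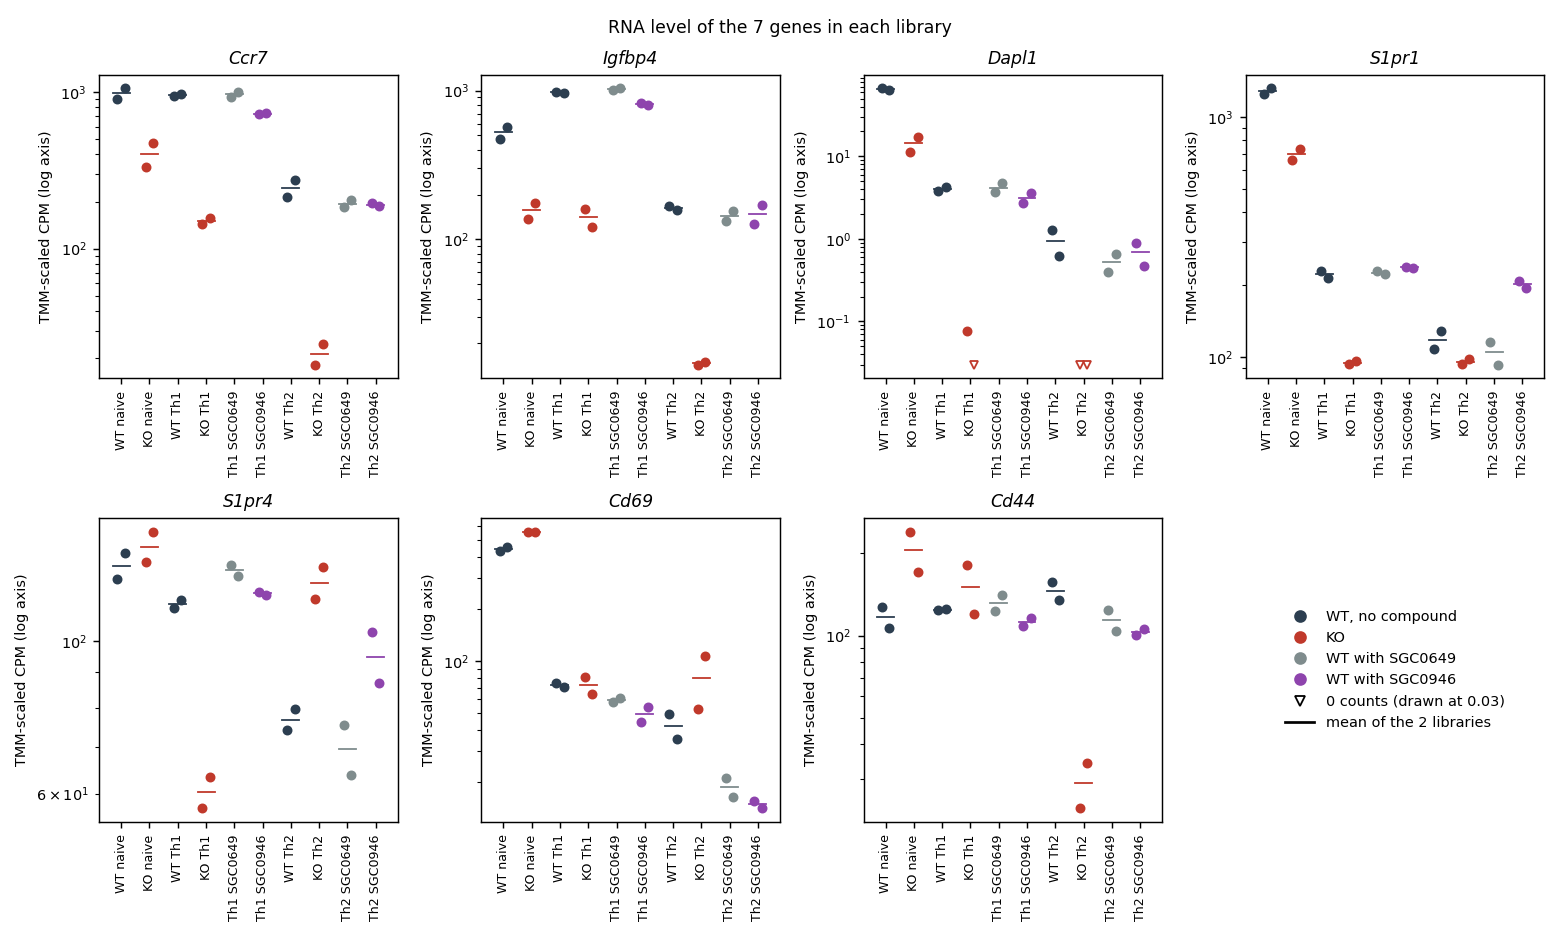
CPM of each gene in each of the 20 libraries (vertical axes as labelled, points are libraries, groups along the horizontal axis). The KO points of Ccr7 and Igfbp4 fall below their WT partners in naive, Th1 and Th2 alike, while those of S1pr4 lie below WT in Th1 and above WT in Th2.

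Igfbp4 (ENSMUSG00000017493; chromosome 11, 99041244 to 99054392, plus strand) encodes a secreted protein that binds insulin-like growth factors. It was measured at 475 and 571 CPM in WT naive and 138 and 177 CPM in KO naive libraries. In Th1 cultures it stood at 974 and 968 CPM in WT and 160.4 and 121 CPM in KO. In Th2 cultures it stood at 167 and 157 CPM in WT and 14.4 and 15.1 CPM in KO. The groups did not overlap in any of the 3, and Igfbp4 fell by 1.73 ± 0.15 on the log2 scale in naive cells (adjusted p = 1.79e-06), by 2.79 ± 0.16 in Th1 (adjusted p = 1.98e-09) and by 3.46 ± 0.18 in Th2 (adjusted p = 3.24e-10). Its highest group was WT Th1 with SGC0649 and its lowest KO Th2, 68.9-fold apart. WT naive cells stood below every WT Th1 group, at a mean of 523 CPM against 971 CPM in WT Th1 without compound. WT Th2, KO naive, both Th2 groups with a compound and KO Th1 each overlapped the next in the order of levels.

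Igfbp4 and Ccr7 are near neighbours on the chromosome. Igfbp4 ends 89.8 kb before the start of the Ccr7 interval, and the table places 1 protein-coding gene between them, Tns4, a component of cell adhesion sites (chromosome 11, 99065678 to 99089306, minus strand). Tns4 differed by 0.27 ± 0.42 between KO and WT naive cells (adjusted p = 0.683), fell by 5.19 ± 0.24 in KO Th1 (adjusted p = 1.02e-10) and was lower in KO Th2 (-1.85 ± 0.61, adjusted p = 0.0176). That last call was lost without WT Th2 replicate 2 (-1.29, adjusted p = 0.184) or KO Th2 replicate 2 (-1.27, adjusted p = 0.128). On the other side of Igfbp4 lies Top2a, a topoisomerase of dividing cells, which was higher in KO naive cells (1.05 ± 0.34, adjusted p = 0.0343) and lower in KO Th2 (-1.60 ± 0.34, adjusted p = 0.00111), with 0.35 ± 0.32 in Th1 (adjusted p = 0.384). In naive cells Tns4 and Top2a thus differed from Ccr7 and Igfbp4 in direction or size. In KO Th1 Tns4 was lower together with Ccr7 and Igfbp4, and in KO Th2 both Tns4 and Top2a were. A change shared by the region was not tested.

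Dapl1 (ENSMUSG00000026989; chromosome 2, 59484653 to 59505020, plus strand) encodes a small protein related to death-associated protein, and its RNA is known from naive T cells. WT naive libraries had 66.6 and 63.1 CPM (678 and 703 counts), and KO naive libraries 11.3 and 17.3 CPM (126 and 190 counts). The groups did not overlap, and Dapl1 fell by 2.18 ± 0.21 on the log2 scale (adjusted p = 5.13e-06). In Th1 cultures 96 counts were found over both WT libraries and 1 count over both KO libraries, a ratio of 102 with a 95% counting interval of 17.9 to 4067 (adjusted p = 9.98e-07). In Th2 cultures 20 counts were found in WT and 0 in KO, which is at least 6.69-fold lower when 3 counts are taken as the floor of the KO group (adjusted p = 0.00049). With the 4 Th2 libraries fitted alone Dapl1 was under the filter on low counts and was not tested. Intervals and floors cover counting error only. Dapl1 was highest in WT naive cells, then KO naive, Th1 with SGC0649 and WT Th1 (which overlapped) and Th1 with SGC0946. The Th2 groups of WT overlapped each other at means of 0.527 to 0.949 CPM, and KO Th1 and KO Th2 stood at or near 0.

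The promoter letters of Dapl1 and Igfbp4 are shown because both genes were lower in KO together with Ccr7. RefSeq's table for GRCm38.p6 held 4 of the 7 genes (Dapl1, Cd44, S1pr4 and Igfbp4). The 250 bases before the start were searched on both strands for CACCC (the core bound by KLF factors, GGGTG on the other strand), GTAAACA (FOXO factors, TGTTTAC) and CTTTGA (TCF and LEF factors, TCAAAG). No 2 matches overlap in these windows, and matches are in capitals. Dapl1 spans chr2:59484403-59484652 and Igfbp4 chr11:99040994-99041243, both on the plus strand and printed 5′ to 3′.
Dapl1: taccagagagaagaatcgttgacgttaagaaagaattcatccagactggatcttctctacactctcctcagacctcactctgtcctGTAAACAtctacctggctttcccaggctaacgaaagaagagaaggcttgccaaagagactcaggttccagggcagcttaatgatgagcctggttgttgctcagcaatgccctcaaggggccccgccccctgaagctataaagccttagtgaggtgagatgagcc
Igfbp4: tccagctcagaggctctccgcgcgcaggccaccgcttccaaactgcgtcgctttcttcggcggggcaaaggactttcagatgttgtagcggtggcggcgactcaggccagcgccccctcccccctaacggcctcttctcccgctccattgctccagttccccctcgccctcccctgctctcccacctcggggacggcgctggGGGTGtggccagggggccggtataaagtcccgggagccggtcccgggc
The Dapl1 window holds GTAAACA once, starting 164 bases before the start, as do 3.17% of 32851 promoter windows on either strand. The Igfbp4 window holds GGGTG once, 48 bases before the start, and 52% of all windows hold that string or its complement. The S1pr4 window also holds GGGTG once, 107 bases before the start, and the Cd44 window holds none of the 3. CTTTGA or its complement, found in 13.8% of all windows, was in none of the 4. A match is a description of these letters and not a binding site.

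S1pr1 (ENSMUSG00000045092; chromosome 3, 115710433 to 115715072, minus strand) encodes the main exit receptor. It was the second most abundant of the 7 per length in WT naive cells, at 420.2 RPKM. Its level was 1247 and 1313 CPM in WT naive, 661 and 736 CPM in KO naive, 228 and 214 CPM in WT Th1 and 93.0 and 96.3 CPM in KO Th1. In these conditions KO lay below WT without overlap, and S1pr1 fell by 0.87 ± 0.10 in naive cells (adjusted p = 1.32e-05) and by 1.22 ± 0.10 in Th1 (adjusted p = 1.01e-07). In Th2 the levels were close, at 107 and 128 CPM in WT and 93.5 and 97.6 CPM in KO (-0.30 ± 0.11, adjusted p = 0.0228). That call was lost without WT Th2 replicate 2 (-0.16, adjusted p = 0.296), without KO Th2 replicate 1 (-0.28, adjusted p = 0.0809) or with the 4 libraries fitted alone (-0.29, adjusted p = 0.0662). Both naive groups stood above all cultures, and WT Th2, Th2 with SGC0649, KO Th2 and KO Th1 overlapped one another in sequence at the bottom.

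S1pr4 (ENSMUSG00000044199; chromosome 10, 81497745 to 81500132, minus strand), another sphingosine 1-phosphate receptor of lymphoid cells, varied least of the 7, with a 2.27-fold range of group means. WT naive libraries had 123 and 134 CPM and KO naive libraries 130.1 and 144 CPM, which overlapped (0.09 ± 0.10, adjusted p = 0.527). In Th1 the levels were 111.5 and 114.5 CPM in WT and 57.2 and 63.5 CPM in KO, a fall of 0.91 ± 0.10 (adjusted p = 2.31e-06). In Th2 they were 74.1 and 79.5 CPM in WT and 115 and 128 CPM in KO, a rise of 0.66 ± 0.10 (adjusted p = 4.09e-05). KO Th1 was the lowest group of all 10, and KO Th2 overlapped Th1 with SGC0649 and with SGC0946 near the top.

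Cd69 (ENSMUSG00000030156; chromosome 6, 129267325 to 129275436, minus strand), the early activation protein that holds S1PR1 inside the cell, was highest before culture. Its level was 429.9 and 455 CPM in WT naive and 557 and 556 CPM in KO naive libraries. These did not overlap, but the difference of 0.33 ± 0.23 did not pass (adjusted p = 0.297). It passed with the 4 naive libraries fitted alone (0.34, adjusted p = 0.00736). In Th1 the levels overlapped, at 74.3 and 70.2 CPM in WT and 80.6 and 64.5 CPM in KO (0.01 ± 0.24, adjusted p = 0.992). In Th2 they were 49.0 and 35.5 CPM in WT and 52.8 and 107 CPM in KO, a rise of 0.91 ± 0.25 (adjusted p = 0.00723). The 2 KO Th2 libraries lay apart, and the call was lost without KO Th2 replicate 2 (0.31, adjusted p = 0.17), without WT Th2 replicate 2 (0.70, adjusted p = 0.0662) or with the 4 libraries alone (0.93, adjusted p = 0.112). KO Th2, KO Th1 and WT Th1 overlapped one another in the order of levels, and Th2 with SGC0946 was lowest at 14.8 CPM on average.

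Cd44 (ENSMUSG00000005087; chromosome 2, 102811141 to 102901665, minus strand) was the least abundant of the 7 per length in WT naive cells, at 17.25 RPKM. It was higher in KO naive libraries, at 240 and 171 CPM against 127 and 107 CPM in WT (0.81 ± 0.20, adjusted p = 0.00819). The rise rested on few libraries: it was 0.55 without KO naive replicate 1 (adjusted p = 0.125), 0.70 without WT naive replicate 2 (adjusted p = 0.0809) and 0.82 with the 4 libraries alone (adjusted p = 0.0732). KO naive replicate 1 is also the library with the highest myeloid and erythroid marker sums. KO naive replicate 2 lay above both WT libraries as well, and a link between Cd44 and these sums was not tested. Th1 cultures overlapped, at 124 and 125 CPM in WT and 181 and 120.2 CPM in KO (0.27 ± 0.20, adjusted p = 0.269; 0.53 and adjusted p = 0.0438 without KO Th1 replicate 2). In Th2 cultures Cd44 was lower in KO, at 23.4 and 34.3 CPM against 157 and 135 CPM in WT, a fall of 2.35 ± 0.22 (adjusted p = 5.82e-07). KO Th2 stood 7.11-fold below the highest group, and 8 of the other 9 groups followed one another with overlapping libraries.

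The balance of opposed genes was compared inside each library as a ratio of RPKM, with no test. S1pr1 stood over Cd69 at ratios of 6.20 and 6.16 in WT naive libraries and 2.54 and 2.83 in KO naive libraries. In Th1 cultures the ratios were 6.56 and 6.50 in WT and 2.46 and 3.19 in KO. In Th2 cultures they were 4.68 and 7.73 in WT and 3.79 and 1.95 in KO. Every KO library therefore lay below every WT library of its condition, and below all WT libraries of the series. Ccr7 over Cd44, which sets a gene of naive cells against a mark of memory, was 24.5 and 33.9 in WT naive and 4.73 and 9.47 in KO naive libraries. It was 26.2 and 26.4 in WT Th1 and 2.74 and 4.48 in KO Th1. The gap was narrower in Th2, at 4.69 and 6.98 in WT and 2.66 and 2.46 in KO, since both genes were lower in KO Th2.

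**Figure D3:**
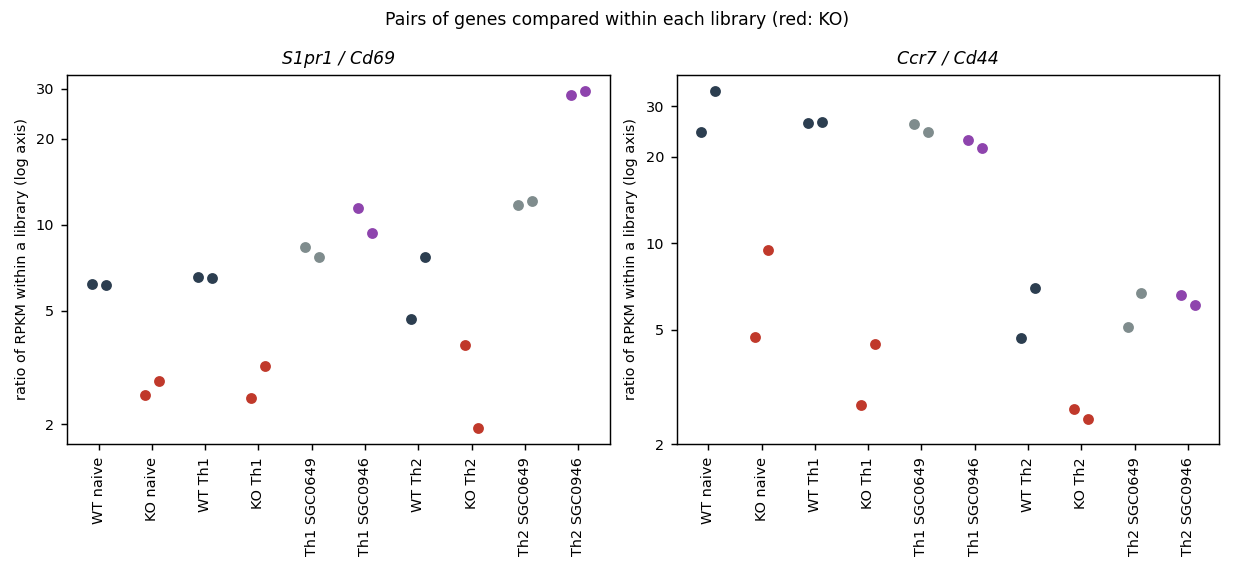
Ratio of RPKM of S1pr1 to Cd69 and of Ccr7 to Cd44 in each library (log vertical axes, groups along the horizontal axis, 2 libraries per group). KO libraries lie below the WT libraries of the same condition in both panels. For S1pr1 over Cd69 the Th2 cultures with SGC0946 stand highest, at 28.6 and 29.4. Those with the control SGC0649 are at 11.7 and 12.2, also above WT Th2 without compound, at 4.68 and 7.73.

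The WT cultures were compared with WT naive cells, where Cd44 passed in neither. Of the 7, 4 were called between WT Th1 cultures and WT naive cells, 3 lower and 1 higher, where 67.3% of all genes were called, 33% lower and 34.3% higher. The falls were -2.54 ± 0.11 for S1pr1 (adjusted p = 2.99e-12), -2.61 ± 0.24 for Cd69 (adjusted p = 3.76e-07) and -4.01 ± 0.25 for Dapl1 (adjusted p = 8.31e-10). Igfbp4 rose by 0.89 ± 0.15 (adjusted p = 5.84e-05) and Ccr7 differed by -0.04 ± 0.15 (adjusted p = 0.838), so Ccr7 and Igfbp4 did not fall with Dapl1 in Th1. Between WT Th2 cultures and naive cells 6 were called, all lower, against 71.9% of all genes and 35% lower. The falls were -3.44 ± 0.11 for S1pr1, -2.004 ± 0.15 for Ccr7 and -1.69 ± 0.15 for Igfbp4 (adjusted p = 9.15e-14, 7.49e-09 and 5.38e-08). Cd44, the exception, differed by 0.32 ± 0.20 (adjusted p = 0.165; called at 0.00468 with these libraries alone). S1pr4 in Th1 differed from naive cells by -0.19 ± 0.10 (adjusted p = 0.112; 0.048 under the other scaling of library size and 0.0135 with these libraries alone).

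WT Th1 cultures held more RNA than WT Th2 cultures of 6 of the 7 genes, against 53.3% of all genes called and 26% called higher. The largest of these differences were Igfbp4 at 2.58 ± 0.16 (adjusted p = 1.71e-09), Dapl1 at 2.04 ± 0.37 (adjusted p = 0.000247) and Ccr7 at 1.97 ± 0.15 (adjusted p = 3.17e-08). Cd69 was higher by 0.77 ± 0.25 (adjusted p = 0.0181), which ended with WT Th1 replicate 1 left out (0.74, adjusted p = 0.0649) and with WT Th2 replicate 2 left out (0.56, adjusted p = 0.131). Cd44 differed by -0.23 ± 0.20 (adjusted p = 0.357; called at 0.0111 with these libraries alone).

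In KO cells 5 of the 7 genes were lower in Th1 than before culture (71% of all genes called, 34.8% lower) and 6 were lower in Th2 (69.1%, 34.9% lower). Ccr7 fell by 1.41 ± 0.15 in KO Th1 (adjusted p = 5.36e-07) and by 4.24 ± 0.18 in KO Th2 (adjusted p = 5.33e-12). Igfbp4 differed by -0.16 ± 0.15 between KO Th1 and KO naive cells (adjusted p = 0.363). Cd44 differed there by -0.45 ± 0.20 (adjusted p = 0.0544), and passed with DESeq2 (adjusted p = 0.0287), with limma voom (adjusted p = 0.0434), with the other library scaling (adjusted p = 0.0462), with a replicate block (adjusted p = 0.0461) and without KO naive replicate 2 or KO Th1 replicate 1 (-0.69 and -0.78, adjusted p = 0.0101 and 0.00422). Between KO Th1 and KO Th2 cultures 4 genes were called, 3 higher and 1 lower in Th1, against 59.8% of all genes, 28.1% higher and 31.8% lower. Igfbp4 (3.26 ± 0.18, adjusted p = 5.37e-10), Ccr7 (2.82 ± 0.17, adjusted p = 1.92e-09) and Cd44 (2.39 ± 0.22, adjusted p = 4.34e-07) were higher in KO Th1, and S1pr4 was lower (-1.01 ± 0.10, adjusted p = 3.97e-07). Dapl1 gives no fold there, since both groups were under the floor. Cd69 differed by -0.13 ± 0.24 (adjusted p = 0.662), and by -0.56 without KO Th2 replicate 1 (adjusted p = 0.0115) but 0.47 without KO Th2 replicate 2 (adjusted p = 0.0366).

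The effect of gene loss was not the same in the 3 states. Tested as a difference of effects, 4 of the 7 genes differed between Th1 and naive cells (27.5% of all genes called), 6 between Th2 and naive cells (35.7%) and 6 between Th1 and Th2 (46.2%). The effect on Ccr7 was more negative in Th1 than in naive cells (difference -1.38 ± 0.21, adjusted p = 0.000221) and more negative in Th2 than in naive cells (-2.23 ± 0.23, adjusted p = 2.22e-06). For S1pr4, which fell in KO Th1 and rose in KO Th2, the effects differed by -1.57 ± 0.15 between Th1 and Th2 (adjusted p = 4.4e-07). For Cd44, the effect in Th2 was lower than that in Th1, with a difference of 2.62 ± 0.30 (adjusted p = 7.99e-06). For S1pr1 the effect was more negative in Th1 than in Th2 (-0.92 ± 0.15, adjusted p = 9.31e-05). With 1 library left out at a time, 4 to 5 genes were called between Th1 and Th2, since Igfbp4 (0.67, adjusted p = 0.0262) gave adjusted p of 0.0101 to 0.16 and Cd69 (-0.90, adjusted p = 0.0462) of 0.000189 to 0.303, highest without KO Th1 replicate 1 and KO Th2 replicate 2. S1pr1 did not pass between Th1 and naive cells (-0.35 ± 0.14, adjusted p = 0.0794; 0.0186 with these libraries alone).

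Against the control compound, none of the 7 genes was called with the inhibitor in Th1. In Th2 the genes of 2 receptors for sphingosine 1-phosphate were called higher. Both compounds were used at 1 µM for the same culture, so 2 pairs of groups were compared. In Th1 cultures 0 of the 7 genes were called by edgeR, DESeq2 or limma voom, where edgeR called 0.467% of all genes, and 2 reached an unadjusted p under 0.05. These were Ccr7, at 723 and 730.2 CPM with SGC0946 against 935 and 1002 CPM with SGC0649 (-0.41 ± 0.15, 95% interval -0.73 to -0.10, adjusted p = 0.294), and Igfbp4, at 829.7 and 794 CPM against 1003 and 1034 CPM (-0.33 ± 0.15, interval -0.64 to -0.01, adjusted p = 0.473). Both passed with the 4 Th1 libraries fitted alone (adjusted p = 0.00151 and 0.00789). All 7 genes had libraries that did not overlap between the compounds, against 46.6% of all genes. For the other 5 the intervals were -0.14 to 0.29 for S1pr1, -0.33 to 0.10 for S1pr4, -0.82 to 0.26 for Cd69, -0.67 to 0.19 for Cd44 and -1.06 to 0.22 for Dapl1.

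In Th2 cultures 2 of the 7 were called and both were higher with SGC0946, against 7.96% of all genes called and 5.45% called higher. S1pr1 was at 208 and 194 CPM with SGC0946 and 116 and 92.9 CPM with SGC0649, a rise of 0.95 ± 0.10 (95% interval 0.73 to 1.17, adjusted p = 5.13e-05). S1pr4 was at 103 and 86.8 CPM with SGC0946 and 75.5 and 63.8 CPM with SGC0649, a rise of 0.45 ± 0.10 (interval 0.23 to 0.67, adjusted p = 0.0141). Both genes were higher in 2 of 2 libraries than in either control library. The S1pr4 call was lost without SGC0649 Th2 replicate 2 (0.33, adjusted p = 0.119) or SGC0946 Th2 replicate 1 (0.32, adjusted p = 0.16). With the 4 libraries fitted alone no gene of the table was called, and S1pr1 and S1pr4 had adjusted p = 0.0834 and 0.274. Ccr7 differed by -0.02 (interval -0.34 to 0.30), Igfbp4 by 0.05 (interval -0.28 to 0.37), Cd44 by -0.14 (interval -0.58 to 0.29), Cd69 by -0.33 (interval -0.99 to 0.32) and Dapl1, on 14 and 11 counts, by 0.35 (interval -0.93 to 1.63), and none of these 5 passed. Between the compounds in Th2, the sums of B cell markers and of myeloid markers overlapped, and no marker of these lists was called. The sums of other lists did not overlap and were higher with SGC0946: NK, mostly Gzma (923 to 1385 against 614 to 754 CPM), mast cell and basophil (209 to 232 against 149.5 to 188 CPM), Treg (6481 to 6702 against 4771 to 5505 CPM) and stromal (173 to 205 against 120.1 to 169 CPM), with no single marker of these 4 lists called. The Treg sum was mostly Il2ra (means of 4984 CPM with SGC0946 and 3872 CPM with SGC0649) and Ctla4 (1536 and 1194 CPM). Foxp3 was at 10.4 and 11.9 CPM and Ikzf2 at 61.0 and 59.6 CPM. Nearly all of the stromal sum was Pecam1 (182 and 137 CPM). In the mast cell and basophil list Cpa3 differed most (63.0 and 28.1 CPM), and the means of Prss34 (19.3 and 24.1 CPM) and Ms4a2 (1.31 and 2.11 CPM) were lower. Of the 8 T cell markers, 1 was higher and 1 lower. The part of these cells in the result was not tested.

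Deletion and inhibitor were then compared within a culture, each against its own control. In Th1 the effects differed for 5 of the 7 genes (30.7% of all genes called) and in Th2 for 6 (32%). The Th2 count was 5 with limma voom or with no filter, where Cd69 did not pass (adjusted p = 0.0634 and 0.0707), and 4 with the libraries alone, where Cd69 did not pass (adjusted p = 0.0791) and Dapl1 was not tested. The effect on Ccr7 was lower for the deletion, with a difference of -2.25 ± 0.21 in Th1 (adjusted p = 2.27e-06) and -3.503 ± 0.23 in Th2 (adjusted p = 3.09e-08). For Igfbp4 the differences were -2.46 ± 0.21 and -3.504 ± 0.24 (adjusted p = 8.22e-07 and 3.85e-08). S1pr1 stood apart in both, by -1.30 ± 0.14 in Th1 and -1.25 ± 0.15 in Th2 (adjusted p = 8.03e-06 and 9.48e-06). For S1pr4 in Th2, where deletion and inhibitor both went with more RNA, the difference was 0.22 ± 0.15 with an interval of -0.09 to 0.53 (adjusted p = 0.281). For Cd69 in Th2 the difference of 1.24 ± 0.39 (adjusted p = 0.0269) was lost without WT Th2 replicate 2 (1.04, adjusted p = 0.0779), without KO Th2 replicate 2 (0.65, adjusted p = 0.0716), without SGC0649 Th2 replicate 1 (1.07, adjusted p = 0.122) and without SGC0946 Th2 replicate 1 or 2 (1.32 and 1.19, adjusted p = 0.0546 and 0.075).

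The effect of SGC0946 differed between Th1 and Th2 for 1 gene, S1pr1, against 0.52% of all genes called. S1pr1 was at 238 and 235 CPM with SGC0946 in Th1 and 227 and 222 CPM with SGC0649, and the difference of the effects was -0.87 ± 0.14 (adjusted p = 0.0134). It was lost without SGC0649 Th1 replicate 1 (-0.84, adjusted p = 0.0664), without SGC0946 Th1 replicate 1 or 2 (-0.88 and -0.85, adjusted p = 0.0554 and 0.0688) and without SGC0946 Th2 replicate 1 (-0.82, adjusted p = 0.055). S1pr4, at -0.56 ± 0.14 (adjusted p = 0.121), passed with DESeq2 (adjusted p = 0.0398) and without SGC0649 Th2 replicate 1 (-0.66, adjusted p = 0.025).

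The control compound was also compared with cultures that received none. With edgeR 0 of the 7 genes were called in Th1 (0.0153% of all genes) and 0 in Th2 (0.673%). In Th1 none reached an unadjusted p under 0.05 and none was called by DESeq2 or limma voom. In Th2 Ccr7 and Cd69 reached an unadjusted p under 0.05, and DESeq2 called 1 gene, Cd69. Cd69 was at 21.1 and 16.3 CPM with SGC0649 and 49.0 and 35.5 CPM without compound (-1.18 ± 0.28, adjusted p = 0.0633 with edgeR, 0.000415 with DESeq2 and 0.0458 with a replicate block). Without SGC0649 Th2 replicate 1, Cd69 (-1.36, adjusted p = 0.0319) and S1pr1 (-0.33, adjusted p = 0.043) were called.

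Lists of genes around the 7 were examined by counts. The list of lymph node entry covers adhesion and chemokine receptor genes and their signalling. Of its 27 tested genes, 5 were higher and 6 lower in KO naive cells, 3 higher and 14 lower in KO Th1, and 14 higher and 8 lower in KO Th2, with medians of 0.02, -0.30 and 0.38. The shares called were 40.7%, 63% and 81.5%, against 28.4%, 50.6% and 53.4% of all genes tested. In KO naive cells Fut7, which makes selectin ligands (1.34), the integrin chain Itgb1 (1.21) and the ATP receptor P2rx7 (0.87) were higher and the adaptor Fyb was lower (-0.78, lost without KO naive replicate 1 at -0.76 and adjusted p = 0.065). P2rx7 (-2.40), Fyb (-1.53) and the kinase Stk4 (-1.20) were lower in KO Th1. The integrin chains Itgb7 (1.85) and Itga4 (1.78) and the selectin ligand Selplg (1.52) were higher in KO Th2.

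The sphingosine 1-phosphate list holds the other receptors, the enzymes that make and break the lipid and its transporters, and 22 of its 23 genes were tested. In KO naive cells 7 were higher and 1 lower, in KO Th1 8 higher and 7 lower and in KO Th2 9 higher and 2 lower (medians 0.38, 0.25 and 0.29). The shares called were 36.4%, 68.2% and 50%, against 28.4%, 50.6% and 53.4% of all genes. Spns2, an exporter of sphingosine 1-phosphate, rose by 1.80, 3.78 and 4.93 on the log2 scale in naive, Th1 and Th2 cells, while the receptor gene S1pr1 was lower in each. The kinase gene Sphk1 was higher in KO naive and Th1 cells (2.29 and 2.41), and S1pr2 in naive cells (0.85). The transporter Mfsd2b was higher in KO naive cells (0.75), not called with WT naive replicate 1 left out (adjusted p = 0.0549), nor with WT naive replicate 2 (0.159) or KO naive replicate 1 (0.196). S1pr3 rose in KO Th1 and Th2 (3.07 and 3.67), Plpp1, a lipid phosphatase, in Th1 (2.49), and Rgs1, which dampens chemokine receptors, and the ceramidase Asah1 in Th2 (2.08 and 1.20).

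Among 23 transcriptional regulators linked to these genes, 5 were higher and 13 lower in KO naive cells, 2 higher and 18 lower in KO Th1, and 9 higher and 8 lower in KO Th2 (medians -0.28, -0.94 and 0.13). The shares called were 78.3%, 87% and 73.9%, against 28.4%, 50.6% and 53.4% of all genes. Foxo1 fell in all 3, at -0.74 ± 0.09, -1.39 ± 0.09 and -0.63 ± 0.09 (adjusted p = 1.61e-05, 4.62e-09 and 1.69e-05). Klf2 was at 692.7 and 1055 CPM in WT naive and 539 and 559 CPM in KO naive libraries (-0.67 ± 0.20, adjusted p = 0.0261), which was not called with WT naive replicate 2 left out (-0.33, adjusted p = 0.319), nor with KO naive replicate 1 (-0.64 and 0.149) or KO naive replicate 2 (-0.69 and 0.0766). Klf2 fell by 3.68 ± 0.27 in KO Th1 (adjusted p = 1.03e-07) and differed by -0.40 ± 0.24 in KO Th2 (adjusted p = 0.185). The effect on Klf2 thus differed between Th1 and Th2 by -3.28 ± 0.37 (adjusted p = 7.67e-06). A link between Klf2 and the receptor genes was not tested. Bach2, a repressor that keeps T cells naive, was lower in all 3 (-1.27, -3.98 and -3.53). Lef1 and Zfp683 were lower in KO naive cells (-1.25 and -2.23) and Tbx21, the Th1 factor, higher (1.11). Tcf7 was lower in KO Th1 and Th2 (-3.04 and -2.77), as was Foxp1 (-2.55 and -1.47), and Prdm1, a factor of effector cells, was higher in KO Th2 (1.85).

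Of 25 memory and activation markers beside Cd44 and Cd69, 16 were higher and 4 lower in KO naive cells (median 0.66), 15 higher and 7 lower in KO Th2 (median 0.65), and 10 higher and 8 lower in KO Th1 (median 0.03). The shares called were 80% in naive cells, 72% in Th1 and 88% in Th2, against 28.4%, 50.6% and 53.4% of all genes. The integrin gene Itga1 (2.31, 3.36 and 5.97) and Klrg1, a receptor of terminal effector cells (1.996, 3.71 and 3.02), were higher in naive, Th1 and Th2 cells. Ly6c2 was higher in KO naive and Th2 cells (2.13 and 2.79) and Cxcr6 in Th2 (3.07). Ccr2, also a myeloid gene, was higher in KO naive cells (1.88), and not called with the 4 naive libraries alone (adjusted p = 0.0803). The chemokine receptors Ccr4 and Cxcr3 were lower in KO Th1 (-3.07 and -2.94). Il7r, the IL-7 receptor chain, differed by 0.24 ± 0.15, -0.22 ± 0.15 and 0.44 ± 0.15 in naive, Th1 and Th2 cells (adjusted p = 0.264, 0.248 and 0.0248). The Th2 call was lost without WT Th2 replicate 2 (0.35, adjusted p = 0.146) or KO Th2 replicate 2 (0.28, adjusted p = 0.222).

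Of 21 genes of naive T cells beside Dapl1 and Igfbp4, 2 were higher and 10 lower in KO naive cells and 9 were not called. In KO Th1, 1 was higher and 16 lower, and in KO Th2 3 were higher and 13 lower, with medians of -0.60, -1.54 and -1.29 in naive, Th1 and Th2 cells. The shares called were 57.1%, 81% and 76.2% of the list, against 28.4%, 50.6% and 53.4% of all genes. In KO naive cells the list was led by Pdlim4 (-1.75), Amigo2 (-1.22), the complement regulator Cd55 (-1.09) and Ift80 (-0.94). Aff3, a transcription elongation factor, was lower in KO Th1 and Th2 (-2.77 and -3.80). Tdrp (-2.39) and the lipid kinase Dgka (-2.25) were lower in KO Th1. Pdlim4 was also lower in KO Th1 (-2.52, lost at adjusted p = 0.0514 without WT Th1 replicate 1 and 0.0648 without KO Th1 replicate 1) and in KO Th2 (-2.11). Slc16a5 was lower in KO Th2 (-2.27, lost at adjusted p = 0.0906 without WT Th2 replicate 1 and 0.0869 without KO Th2 replicate 1). Ctse, a protease, was higher there (3.69).

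**Figure D4:**
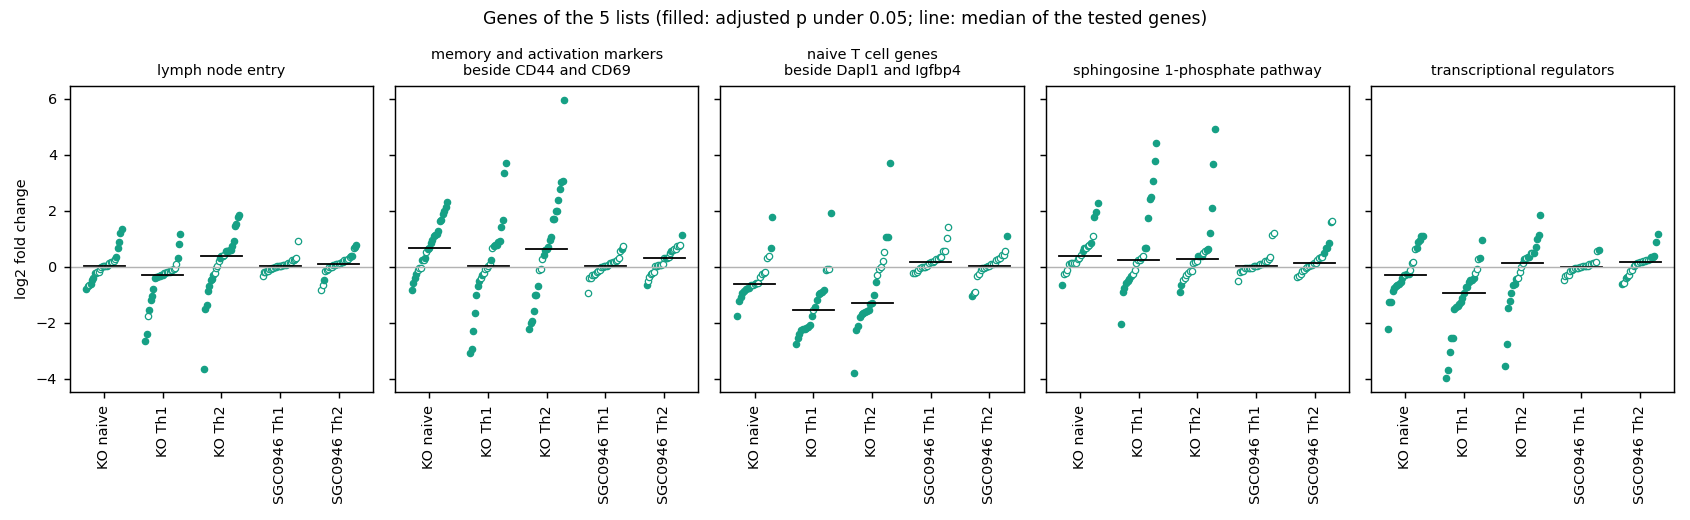
Log2 fold change of each tested gene of the 5 lists (vertical axis) in the 5 comparisons along the horizontal axis. Filled points passed at an adjusted p under 0.05 and the lines are medians, which for genes of naive T cells lie at -0.60, -1.54 and -1.29 in the 3 KO comparisons.

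With SGC0946 in Th1, where 0.467% of all genes were called, only Myo1f of the memory list (0.62, adjusted p = 0.0136) and Prdm1 of the regulators (0.59, adjusted p = 0.0277) were called, and neither was called when any 1 of the 4 libraries was left out (adjusted p of 0.0641 to 0.355). In Th2, 4 entry genes were higher and 1 lower, 6 sphingosine 1-phosphate genes were higher and none lower, 5 regulators were higher and 2 lower, 4 memory genes were higher and 1 lower and 1 naive gene each was higher and lower. The shares called in Th2 were 18.5%, 27.3%, 30.4%, 20% and 9.52% of these lists in that order, against 7.96% of all genes. Named by size, these were Cxcr4 (0.78), Itgb7 (0.71), Skap1 (0.39) and Gpr183 (-0.46), S1pr3 (1.59), Spns2 (0.86), Ripor2 (0.69) and Rgs1 (0.67), Prdm1 (1.19), Klf2 (0.88), Bach2 (-0.60) and Foxo1 (0.38), Myo1f (1.13), Ly6a (0.58), Spn (0.32) and Nr4a1 (-0.66), and Ctse (1.09) and Aff3 (-1.06). Of these, 10 lost their call without SGC0649 Th2 replicate 2 (adjusted p of 0.062 to 0.243) and 10 without SGC0946 Th2 replicate 1 (0.0595 to 0.275). These were Cxcr4, Skap1, S1pr3, Spns2, Ripor2, Rgs1, Klf2, Foxo1, Spn and Ctse in both cases. Without SGC0649 Th2 replicate 1 the calls of Gpr183, Bach2, Klf2, Spn and Spns2 were lost (0.058 to 0.198), and without SGC0946 Th2 replicate 2 those of Gpr183, Bach2, Klf2, Spn, Spns2, Skap1 and S1pr3 (0.0526 to 0.276). Il7r differed by 0.30 ± 0.15 in Th2 (adjusted p = 0.256), and passed without SGC0649 Th2 replicate 1 (0.62, adjusted p = 0.00546).

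The pattern of each gene over the 10 groups was compared with 10970 other genes by the root mean square difference of group means on the log2 scale, after each gene was centred on its own mean. What the groups share is given by the labels only in part, so these are descriptions. Among the 7 themselves Ccr7 and Igfbp4 were most alike (0.447), ahead of S1pr4 and Cd44 (0.868), and S1pr4 and Dapl1 were least alike (2.27). Nearest to Ccr7 were Aff3 (0.359) and Tnfrsf25 (0.479), and nearest to Igfbp4 was Aff3 (0.56). S1pr1 was nearest to Rapgef4 (0.264) and Zbtb20 (0.292), and S1pr4 to Izumo4 (0.096) and Itpr3 (0.153). Cd69 was nearest to Cd86 (0.227) and Fbxl22 (0.543), Cd44 to Ccrl2 (0.266) and Lin9 (0.288), and Dapl1 to Vipr1 (0.605) and Tox (0.695).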

How the data were processed

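RNA was sequenced from CD4+ T cells, in 20 libraries of 10 groups. The deposited values are counts of reads per gene, which the authors obtained, per the file headers, from featureCounts 1.5.3 run with the strand setting 2 and the annotation of GRCm38 in Ensembl 84, so the 7 genes were counted apart from genes on the other strand. The gene lengths used for RPKM are exonic lengths in bases, deposited beside the counts, per the file headers. The aligner is not given in the sources used here. Per the submitters' processing notes, edgeR and limma were among their tools. Of all alignments, 49.5% to 56.3% per library were assigned to a gene.

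Counts of 22048 protein-coding genes were filtered with filterByExpr (minimum count 10, minimum total 15), which left 13072 genes, and were scaled by TMM (factors 0.878 to 1.08). One fit of edgeR 4.0.16 (R 4.3.3) covered all 20 libraries, each group having its mean (robust quasi-likelihood, common biological coefficient of variation 0.0963), so each gene's spread is shared over all groups. Calls were made at a Benjamini-Hochberg adjusted p under 0.05 over all genes tested. The SE is the size of the log2 change over the root of F. The fitting was tested on simulated data. The chi-square per degree of freedom between the libraries of a group was 2.2 to 18.4, so no pair agreed within counting error.

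The 7 genes, the lists and the tests were chosen with earlier results of these data known. Named besides the 7 were Klf2, Foxo1 and Il7r, up to 4 called genes of each list with the largest change above an average log2 CPM of 1, and the 2 genes most like each of the 7. One gene that this rule names is counted in its list and not reported by name here. Tns4 and Top2a were named for their position. Dot1l, Cd4 and marker genes served as checks.

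Alternatives were the size factors of DESeq2 in edgeR (RLE scaling), no filter on low counts, DESeq2 1.42.0, voom of limma 3.58.1, the deposited table with all gene classes, the libraries of a comparison fitted alone, a block for the replicate number, and leaving out every library in turn. The numbers come from the labels, which do not say what they stand for. Deviations from the group means of same-numbered libraries correlated at 0.197 to 0.703 over 15 pairs of WT cultures and at 0.147 to 0.329 over the 3 pairs of KO and WT of one condition, which was taken as pairing in these groups. The main fit had no block, so its SEs and p-values leave this pairing out. Over all 45 pairs of groups, 22 were over 0.1. The table columns give both SGC0946 libraries of a condition the number 1, and these were matched to their titles by library number.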

Additional observations from a re-analysis of the deposited data

Results flagged for a closer look

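The effect of losing Dot1l differed between cell states for several of the 7 genes when the difference of the effects was tested (edgeR's quasi-likelihood test, Benjamini-Hochberg over 13072 genes). Between Th1 cultures and naive cells it was lower in Th1 for Ccr7 (-1.38, adjusted p = 0.000221), S1pr4 (-0.998, adjusted p = 0.000103), Igfbp4 (-1.05, adjusted p = 0.0018) and Dapl1 (-4.13, adjusted p = 0.0019). The Dapl1 value rests on 1 count in KO Th1, so its size depends on the prior count of the fit.

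Between Th2 cultures and naive cells it was lower in Th2 for Ccr7 (-2.23, adjusted p = 2.22e-06), Igfbp4 (-1.73, adjusted p = 3.39e-05) and Cd44 (-3.16, adjusted p = 2.26e-06), which was higher in KO naive cells and lower in KO Th2. It was higher in Th2 for S1pr1 (0.57, adjusted p = 0.00532) and S1pr4 (0.57, adjusted p = 0.00519). For Dapl1 (-4.23, adjusted p = 0.0447) the KO Th2 counts were 0. The call was lost with DESeq2 (adjusted p = 0.0571), with limma voom (adjusted p = 0.103) and with these libraries alone (adjusted p = 0.0731). It was also lost when any library except KO naive replicate 1 or WT Th2 replicate 2 was left out (-4.27 to -3.59).

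Between Th1 and Th2 cultures the effect on Ccr7 was less negative in Th1 (0.86, adjusted p = 0.00587), as was that on Igfbp4 (0.67, adjusted p = 0.0262), and the effect on Cd44 was higher in Th1 (2.62, adjusted p = 7.99e-06). It was lower in Th1 for S1pr1 (-0.92, adjusted p = 9.31e-05), S1pr4 (-1.57, adjusted p = 4.4e-07) and Cd69 (-0.90, adjusted p = 0.0462). The Igfbp4 call was lost with limma voom (adjusted p = 0.0527) and without any 1 of the libraries except KO Th1 replicate 2, with values of 0.43 (without KO Th1 replicate 1, adjusted p = 0.16) to 0.71 in the lost cases. The Cd69 call was lost with no filter on low counts (adjusted p = 0.104), with limma voom (0.0594), with the table of all gene classes (0.0568), with the replicate number as a block (0.0586) and with these libraries alone (0.19), and without WT Th1 replicate 1 or 2, KO Th1 replicate 2, WT Th2 replicate 2 or KO Th2 replicate 2, and was smallest without the last of these (-0.31, adjusted p = 0.303).

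The effect of SGC0946 on S1pr1 also differed between Th1 and Th2 (-0.87, adjusted p = 0.0134), with the lost calls given above.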

How the results depend on the processing

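Over the 7 genes and 19 comparisons, 1545 values under an alternative kept their direction and their side of the threshold, 55 lost a call, 25 gained one and 1 reversed. The reversed value was Cd69 in KO Th1 against KO Th2, at 0.47 without KO Th2 replicate 2, where leaving out the others in turn gave -0.56 at the lowest. With the libraries of a comparison fitted alone, 4 of the 7 genes were called for KO in Th2 (S1pr1 and Cd69 lost their call and Dapl1 was under the filter), 2 for SGC0946 in Th1, 0 for SGC0946 in Th2 and 0 for the difference of the SGC0946 effects, which DESeq2 put at 2. For SGC0649 against no compound in Th2, DESeq2 and the replicate block each called 1. With each library left out in turn the counts were 4 to 5, 5 to 6 and 5 to 7 for KO in naive, Th1 and Th2 cells, 0 and 1 to 2 for SGC0946 in Th1 and Th2, 0 and 0 to 2 for SGC0649 in Th1 and Th2, and 0 to 2 for the difference of the SGC0946 effects.

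The replicate block changed 3 calls among the 7 genes: it added Cd69 for SGC0649 in Th2 (adjusted p = 0.0458) and Cd44 for KO Th1 against naive (adjusted p = 0.0461), and ended Cd69 for the KO effect in Th1 against Th2 (adjusted p = 0.0586). With the block, SGC0649 in Th2 called 523 genes of the table against 88. SGC0946 called 136 against 61 in Th1 and 1407 against 1040 in Th2.

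Over all genes, the compound comparisons depended most on the setting. SGC0946 in Th1 called 61 genes, 140 with DESeq2, 136 with the block, 100 without the filter, 561 with the libraries alone and 3 to 6 with a library left out. SGC0946 in Th2 called 1040, 0 with the libraries alone and 330 to 1966 with a library left out. SGC0649 called 2 in Th1 (14 with DESeq2, 190 with the libraries alone) and 88 in Th2 (531 with DESeq2, 207 without the filter, 137 with voom, 0 with the libraries alone, 2 to 2402 with a library left out). The SGC0946 difference called 68 (143 with DESeq2, 12 with the libraries alone, 10 to 256 with a library left out). KO in naive cells called 3708, and 1571 without KO naive replicate 1. KO against SGC0946 in Th2 called 4179, and 2636 with the libraries alone. With 2 libraries per group, a group reduced to 1 was assumed to vary like the others. Depth limits Dapl1 in cultures.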
